A study of Homo sapiens with 12 samples.

Results

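The 10 genes described here encode proteins of the basement membrane: the collagen IV chains COL4A1 and COL4A2, the collagen XVIII chain COL18A1, the laminin chains LAMA4, LAMB1, LAMB2 and LAMC1, the nidogens NID1 and NID2, and perlecan, HSPG2. They were taken by symbol, and all 10 were found among the 61541 gene identifiers of the tables. The cells were IMR90 human lung fibroblasts, wild type in every group, in which polyadenylated RNA was sequenced. All groups received doxorubicin, a DNA-damaging anthracycline, for 24 hours and then stayed in culture for at least 8 days, a protocol that the labels describe as bringing on senescence. The groups were cells on plastic with 100 nM, cells on a gel of 2 kPa with 100 nM, cells on plastic with 250 nM and cells on the gel with 250 nM, with 3 libraries each and 12 in all. The question in the series title is what substrate stiffness does to the senescent secretome and transcriptome. Untreated cells were not analysed here, and all values come from 1 cell line.

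A basement membrane is a thin sheet of matrix that underlies epithelia and endothelia and wraps muscle, fat and nerve cells. Laminin trimers of an alpha, a beta and a gamma chain anchor to cell receptors and assemble into a network, and collagen IV, in its commonest form a trimer of alpha 1 and alpha 2 chains, builds the crosslinked network that gives the sheet its strength. Nidogens bridge the laminin and collagen IV networks, and perlecan and collagen XVIII carry heparan sulfate chains that bind growth factors. Lung fibroblasts lie next to the basement membranes of the alveolar wall and contribute chains to them.

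The 6 libraries at 100 nM held 5887056 to 7351916 expected counts each, and the 6 at 250 nM held 2229069 to 2730309. Dose went with the library set, since molecular identifiers appear in the file names at 250 nM only, so dose and library preparation cannot be told apart. Libraries stood apart in the share of counts at ribosomal loci in 2 cases, replicate 1 of plastic at 100 nM at 14.3% and replicate 1 of gel at 250 nM at 13.2%, and the latter also had the highest mitochondrial share of coding counts, 8.11% against 2.58% to 5.12% elsewhere. Fibroblast markers were detected in full, with 10 of 10 passing the count filter and sums of 9129 to 14560 CPM (counts per 1000000 of the scaled library). Endothelial markers, whose cells make collagen IV and laminin in quantity, passed the filter for 2 of 12, with sums of 25.6 to 39.1 CPM on plastic and 10.8 to 18.1 on gel at 100 nM, and 37.4 to 48.2 and 14.7 to 33.6 at 250 nM. TEK made up most of these sums, at means of 24.8, 9.73, 33.2 and 15.5 CPM in the same order of groups. FLT1, the other that passed the filter, averaged 5.94, 3.64, 4.59 and 1.99 CPM in this order. ROBO4 reached a mean of 1.80 CPM in its highest group, gel at 250 nM, and ESAM 1.92 in its highest, plastic at 250 nM. Of the remaining endothelial genes, CLDN5 was at 0 in every library. PECAM1, CDH5, VWF, KDR, ERG, EMCN and TIE1 each averaged under 1 CPM in each group. PECAM1 and CDH5 were highest on gel at 250 nM, at 0.858 and 0.329 CPM. Of the other marker lists, 4 of 12 epithelial, 6 of 10 pericyte and smooth muscle and 0 of 10 leukocyte genes passed the filter. In bulk RNA, fewer cells of a type and less RNA per cell cannot be told apart. Nothing in the labels says that replicates were separate cultures, so p-values measure only the spread between these libraries.

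COL4A1 and COL4A2 lie head to head on chromosome 13 and are transcribed away from a shared promoter, and the stretch between their starts is shown because both chains are followed together below. In the RefSeq table of build GRCh38.p14, COL4A1 starts at 110307157 on the minus strand and COL4A2 at 110307284 on the plus strand, 127 bases apart. The 126 bases between them, chr13:110307158-110307283, are given on the plus strand, 5′ to 3′, with capitals for the matches to CCAAT, CCCTNCCCC and GGGCGG, in this order. The 126 bases upstream of LAMC1, chr1:183023294-183023419 on the plus strand, are given for contrast as the promoter of the laminin chain that the commonest trimers share.
COL4A1 and COL4A2: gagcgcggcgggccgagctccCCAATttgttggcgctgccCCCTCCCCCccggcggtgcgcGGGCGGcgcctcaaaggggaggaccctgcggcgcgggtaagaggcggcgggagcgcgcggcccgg
LAMC1: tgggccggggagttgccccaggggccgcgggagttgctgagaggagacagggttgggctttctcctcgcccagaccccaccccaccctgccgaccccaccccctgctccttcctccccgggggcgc
Both strands were searched, and the 3 motifs did not overlap each other. The collagen IV stretch held each of them 1 time and held no TATAAA. The LAMC1 stretch held 0 matches to all 4 motifs. Among 35116 RefSeq promoters, a window of the same length held CCAAT in 21.1%, GGGCGG in 34.6%, CCCTNCCCC in 6.43% and TATAAA in 5.87%. The G and C content of the collagen IV stretch was 80.2%, against a median of 60.3% over all promoters. These are matches of letters and not measured binding sites. In GENCODE 29 the COL4A1 gene spans chr13:110148963-110307233 and COL4A2 spans chr13:110305812-110513209, on opposite strands, so the annotated genes themselves overlap at this end, and reads there can be divided between them only by strand or splicing. The sources used here give no strand setting for the counting.

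The other members are spread over 6 chromosomes of GRCh38. COL18A1 lies at chr21:45405137-45513720, LAMA4 at chr6:112108760-112254939, LAMB1 at chr7:107923799-108003255, LAMB2 at chr3:49121114-49133118 and LAMC1 at chr1:183023460-183145592. NID1 lies at chr1:235975830-236065162, NID2 at chr14:52004803-52069228 and HSPG2 at chr1:21822245-21937297. Coding genes with counts in these libraries overlap 4 of them on the opposite strand, SLC19A1 with COL18A1, DLD with LAMB1, RTRAF with NID2 and LDLRAD2 with HSPG2, and an unnamed coding gene that overlaps LAMA4 was at 0 in every library. RTRAF averaged 413.7 counts per library against 86.3 for NID2, and LDLRAD2 averaged 122.7 against 9.3 for HSPG2. The values of NID2 and HSPG2 are therefore the least certain. Counts were fractional in 12 of 12 libraries for COL18A1 and NID2 and in 10 for HSPG2, which means that RSEM divided reads between these genes and others.

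Per transcript length, in TPM (transcripts per 1000000, as RSEM scales them), the laminin beta 1 and gamma 1 chains had the highest values of the members. LAMB1 ranked first and LAMC1 second in each of the 4 groups. On plastic at 100 nM the mean TPM was 131.8 ± 19.3 (SD, n = 3 here and below) for LAMB1 and 110.3 ± 40.9 for LAMC1. COL4A2 at 58.0 ± 19.0, LAMA4 at 53.9 ± 8.79, LAMB2 at 50.7 ± 15.5 and COL4A1 at 44.8 ± 16.2 followed. These 4 neighbours did not differ beyond their spread, nor did LAMB1 and LAMC1. NID1 at 7.43 ± 3.003 and NID2 at 7.21 ± 1.18 were close to each other, COL18A1 stood at 3.54 ± 1.11, and HSPG2 was lowest in all groups, at 0.803 ± 0.266 here. The 10 genes summed to 468.4 ± 65.3 TPM on plastic and 507.8 ± 49.9 on gel at 100 nM, and to 419.2 ± 24.3 and 331.6 ± 82.5 at 250 nM.

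The TPM of several members rested on short transcript models. RSEM averages a gene's length over the isoforms it assigns reads to, and for LAMB2 this length was 412 to 500.3 bases where the longest coding transcript has 5674. LAMB2 thus ranked beside COL4A1 in TPM on plastic at 100 nM, while its counts were far lower, 18.6 ± 5.74 CPM against 169.4 ± 15.4. The length of LAMB1 was 967 to 1696 bases, where its longest coding transcript has 5766, and that of COL4A1 was 3424 to 5052. The first rank of LAMB1 in TPM rests on this. In CPM on plastic at 100 nM LAMB1 had 164.7 ± 34.0, close to COL4A1, and LAMC1 had 231.1 ± 21.4. The length of LAMC1 ran from 1376 to 7823 bases, and the longest value was in replicate 1 of gel at 250 nM. LAMC1 had 5.10 TPM in that library and 98.2 and 78.4 in the others of its group. The mean length of LAMA4 was 1273 bases on plastic and 1145 on gel at 100 nM, but 2854 and 2466 at 250 nM. LAMA4 therefore went from 53.9 ± 8.79 TPM on plastic at 100 nM to 30.3 ± 13.6 at 250 nM, where its CPM went from 63.3 ± 19.2 to 91.3 ± 45.3. NID1 was the only member with 1 length, 5412 bases, in all libraries. Differences of single genes between groups are given in CPM for this reason. The sums above, and the chain ratios below where not named as CPM or counts, are in TPM and depend on these lengths.

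**Figure D1:**
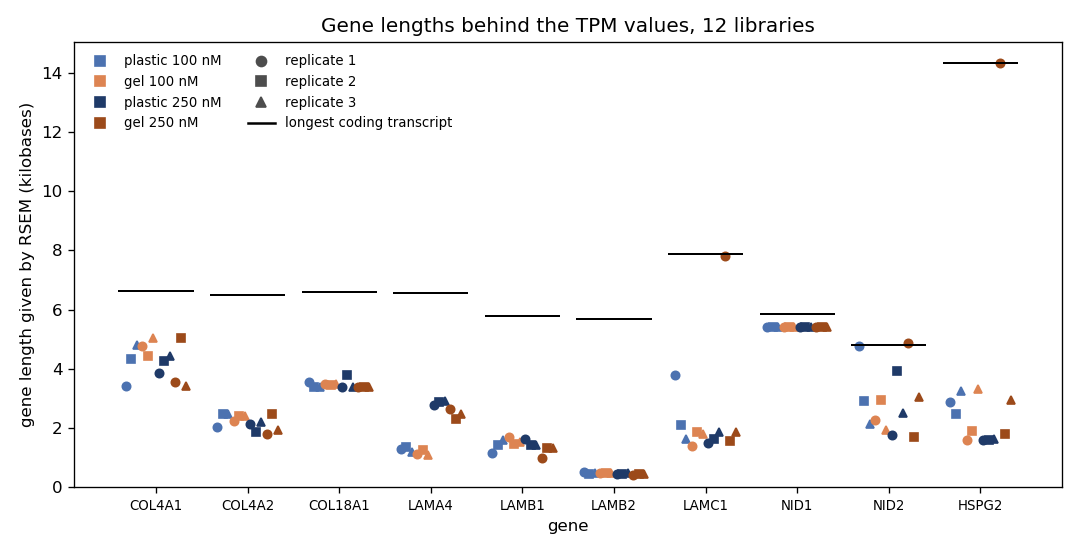
Gene length used by RSEM, in kilobases, for each of the 10 genes in each of the 12 libraries (points, coloured by group and shaped by replicate), with the longest annotated coding transcript as a bar. LAMB2 sits between 412 and 500.3 bases in all libraries. LAMC1, NID2 and HSPG2 are longest in replicate 1 of gel at 250 nM, at 7823, 4870 and 14341 bases. The bars for these genes are at 7889, 4811 and 14327 bases, so NID2 and HSPG2 lie slightly above theirs in that library.

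Collagen IV was lower on the gel in most libraries at both doses, without passing the test across all genes in either. COL4A1 had 187.1, 158.7 and 162.5 CPM on plastic at 100 nM and 168.7, 94.3 and 107.2 on gel. Replicate 1 on gel lay among the plastic libraries and the other 2 lay below all of them. At 250 nM COL4A1 had 149.2, 167.8 and 132.9 CPM on plastic and 82.3, 86.5 and 76.8 on gel, and every gel library lay below every plastic library. COL4A2 had 134.1, 101.3 and 128.8 CPM on plastic and 129.9, 67.1 and 76.7 on gel at 100 nM. The values at 250 nM were 87.4, 62.2 and 70.0 CPM on plastic and 54.0, 44.5 and 57.1 on gel. The same gel library, replicate 1 at 100 nM, was the one at the plastic level for both chains, and the groups of COL4A2 did not overlap at 250 nM. Replicate 1 of gel at 100 nM had the highest share of counts at ribosomal loci, 30.7%, and the fewest expected counts at that dose, 5887056. The part of library quality in its values was not tested.

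The edgeR quasi-likelihood fit over 12329 genes gave COL4A1 a log2 change of -0.46 ± 0.21 (SE) from plastic to gel at 100 nM, with an adjusted p of 0.505. At 250 nM the change was -0.87 ± 0.22, 1.83-fold lower on gel, with an unadjusted p of 0.00133 and an adjusted p of 0.213. Averaged over both doses it was -0.67 ± 0.15, 1.59-fold lower, with an adjusted p of 0.0621. This average passed the threshold in 6 of 23 settings of the analysis. Leaving out replicate 1 of gel at 100 nM gave -0.81 with an adjusted p of 0.0118, and leaving out replicate 1 of gel at 250 nM gave -0.67 with an adjusted p of 0.0332. At 250 nM COL4A1 passed in 3 of 24 settings: with no filter on low counts, in limma-voom with sample weights and in DESeq2, with adjusted p from 0.00848 to 0.0435. COL4A2 changed by -0.41 ± 0.24 at 100 nM and -0.50 ± 0.25 at 250 nM, with adjusted p of 0.61 and 0.545, and by -0.46 ± 0.18 on average, with an adjusted p of 0.276. The changes at 100 nM depended on single gel libraries: they were -0.75 for COL4A1 and -0.76 for COL4A2 with replicate 1 left out, and -0.30 and -0.24 with replicate 2 left out. The endothelial markers TEK and FLT1 had lower means on gel at both doses as well, as given above. ROBO4 was lower on gel at 100 nM, at 1.715 and 0.647 CPM, and higher on gel at 250 nM, at 0.7535 and 1.80. PECAM1 and CDH5 also had higher means on gel at 250 nM. A link of these markers to collagen IV was not tested. CLDN5, PECAM1, CDH5, VWF, KDR, ERG, EMCN and TIE1 were at or near 0 in all groups.

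**Figure D2:**
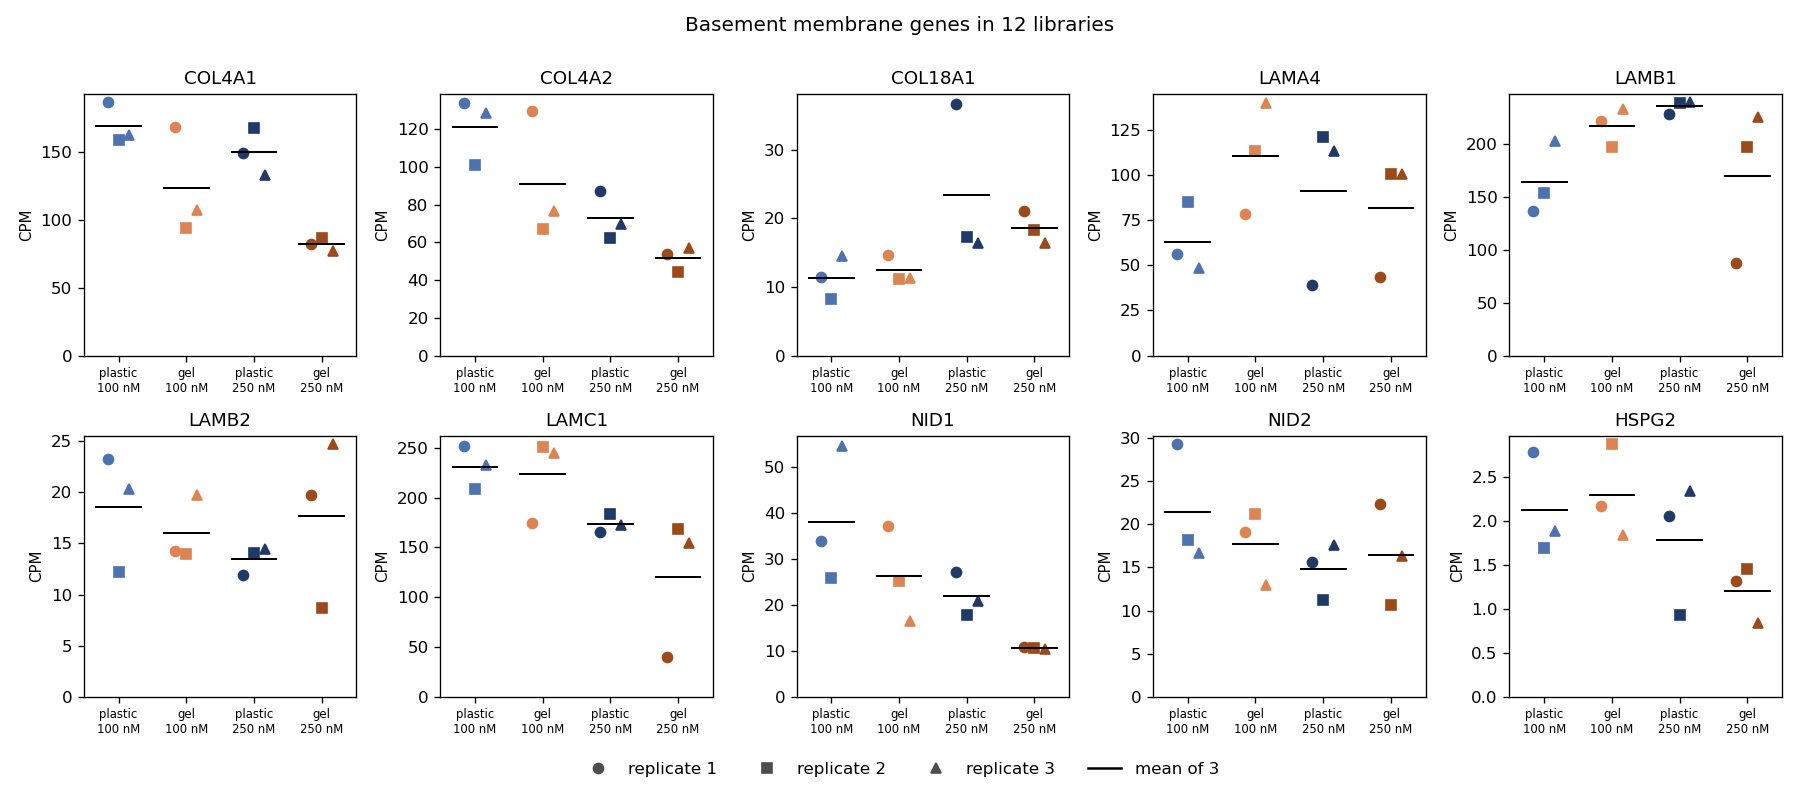
CPM of each of the 10 genes in the 12 libraries, with a panel and a linear axis from 0 for each gene, points shaped by replicate and a bar at the mean of 3. COL4A1 and NID1 show the lowest group on gel at 250 nM, at means of 81.9 and 10.7 CPM, and LAMB1 and LAMC1 show a single low library there.

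Both nidogens had lower means on gel at 100 nM, and NID1 was also lower on gel at 250 nM. NID1, the more widely expressed nidogen, had 33.8, 25.8 and 54.5 CPM on plastic and 37.0, 25.2 and 16.5 on gel at 100 nM, and the groups overlapped. At 250 nM it had 27.2, 17.8 and 20.7 CPM on plastic and 10.9, 10.6 and 10.5 on gel, where all gel libraries were lower and nearly equal. The change from plastic to gel was -0.54 ± 0.31 at 100 nM and -1.04 ± 0.36 at 250 nM on the log2 scale, with adjusted p of 0.605 and 0.339 from edgeR. The value at 100 nM was -0.87 without replicate 1 of gel and -0.19 without replicate 3 of plastic. The average over both doses was -0.79 ± 0.24, 1.73-fold lower, with an adjusted p of 0.152. NID2, its paralogue, had 12.9 to 29.4 CPM over both substrates at 100 nM and 10.6 to 22.4 at the higher dose. Its changes were -0.27 at 100 nM and 0.16 at 250 nM, with adjusted p of 0.834 and 0.915, and the sign turned to 0.03 at 100 nM when replicate 1 on plastic was left out, and to -0.15 at 250 nM when replicate 1 on gel was left out.

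The balance of paired chains was measured within each library as a ratio of TPM and tested by an exact two-sided permutation test of libraries within each dose, adjusted over the 4 ratios tested. The ratio of NID1 to NID2 was 1.01, 0.751 and 1.25 on plastic and 0.791, 0.631 and 0.438 on gel at 100 nM. The 250 nM values were 0.548, 1.12 and 0.53 on plastic and 0.435, 0.299 and 0.352 on gel. All gel libraries were below all plastic libraries at 250 nM, and 1 gel library overlapped with plastic at 100 nM. The mean log2 change was -0.82, with an exact permutation p of 0.01 and an adjusted p of 0.04, where the smallest p that this design allows is 0.005. The ratio of CPM gave -0.71 with an adjusted p of 0.24, so the call rested on the lengths of NID2 that RSEM used, 1690 to 4870 bases. It was also lost when any of 8 of the 12 libraries was left out, with changes from -0.92 to -0.65 over all 12.

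The ratio of COL4A1 to COL4A2, whose products join in a trimer of 2 alpha 1 chains and 1 alpha 2 chain, was 0.813, 0.877 and 0.638 TPM on plastic and 0.594, 0.743 and 0.656 on gel at 100 nM. The 250 nM values were 0.931, 1.15 and 0.918 on plastic and 0.747, 0.929 and 0.739 on gel. In counts, COL4A1 was above COL4A2 in every library, at 1.26 to 2.7 times its value. The median length that RSEM used was 4378 bases for COL4A1 and 2203 for COL4A2. Their longest coding transcripts have 6616 and 6494 bases, so which chain is the more abundant rests on these lengths. The TPM ratio overlapped between the substrates at both doses. Its mean log2 change was -0.26, with an exact permutation p of 0.04 and an adjusted p of 0.08. The ratio of LAMB1 to LAMB2 changed by -0.07, with an exact permutation p of 0.82, and that of LAMB1 to LAMC1 by 0.55, with an exact permutation p of 0.565. The latter was -0.02 without replicate 1 of gel at 250 nM, in which LAMB1 was 19.1 times LAMC1 in TPM against 1.40 and 2.12 in the others of its group. In counts the ratio was 2.18 there, against 1.18 and 1.46. The TPM ratio of 19.1 thus rested largely on the LAMC1 length of 7823 bases in that library.

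Laminin chains showed no common direction. LAMA4, the alpha chain of laminins 411 and 421 of mesenchymal and vascular basement membranes, had 56.5, 85.0 and 48.4 CPM on plastic and 78.6, 113.5 and 140.0 on gel at 100 nM. Only replicate 1 on gel lay below the highest plastic library. The change was 0.81 ± 0.41 on the log2 scale, with an adjusted p of 0.543. At 250 nM LAMA4 had 39.1, 121.1 and 113.8 CPM on plastic and 43.8, 100.6 and 100.7 on gel, with replicate 1 low on both substrates, and a change of -0.17 that became 0.13 without replicate 1 on gel.

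LAMB1, the beta chain of laminins 111, 211 and 411, had 137.2, 154.2 and 202.7 CPM on plastic and 222.2, 197.2 and 233.7 on gel at 100 nM, a change of 0.40 ± 0.28 with an adjusted p of 0.68. With 250 nM LAMB1 had 228.3, 239.3 and 239.7 CPM on plastic and 87.5, 197.7 and 225.3 on gel, a change of -0.47 ± 0.28 with an adjusted p of 0.609. Without replicate 1 of gel at 250 nM the latter was -0.17. The difference of the gel effect between the doses was -0.87 ± 0.39 for LAMB1, with an unadjusted p of 0.0427 and an adjusted p of 0.755, and -0.57 without replicate 1 of gel at 250 nM.

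LAMC1, the gamma chain of most laminins, had 251.8, 209.1 and 232.3 CPM on plastic and 174.8, 250.6 and 244.6 on gel at 100 nM, where the groups overlapped. With 250 nM LAMC1 had 165.6, 183.2 and 172.8 CPM on plastic and 40.1, 168.2 and 154.0 on gel. Its changes were -0.05 with an adjusted p of 0.979 and -0.53 ± 0.37 with an adjusted p of 0.675, and the latter was -0.12 without replicate 1 of gel at 250 nM. LAMB1, LAMC1 and LAMA4 were all lowest on gel at 250 nM in that library, which also stood apart in its ribosomal and mitochondrial shares, and the part of library quality in these values was not tested. LAMB2, the beta chain of neuromuscular and kidney laminins, had 12.2 to 23.3 CPM per library at 100 nM and 8.70 to 24.8 at 250 nM, with changes of -0.22 and 0.41 ± 0.36 and adjusted p of 0.882 and 0.756. With a library left out these changes ran from -0.45 to -0.014 at 100 nM and from 0.079 to 0.70 at 250 nM.

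Both heparan sulfate carriers were scarce. COL18A1, whose C-terminal fragment is endostatin, had 11.4, 8.17 and 14.5 CPM on plastic and 14.6, 11.2 and 11.4 on gel at 100 nM. With 250 nM COL18A1 had 36.7, 17.3 and 16.4 CPM on plastic and 21.1, 18.4 and 16.4 on gel, so replicate 1 on plastic was about as high as the other 2 together. Its gel changes were 0.12 and -0.33, with adjusted p of 0.941 and 0.788. The latter was 0.13 without that plastic library. HSPG2 did not pass the filter on low counts and was not tested: it had 11.04 to 20.8 expected counts per library at 100 nM, and at 250 nM it had 2 to 5.6. Its means were 2.13 ± 0.58 CPM on plastic and 2.30 ± 0.53 on gel at 100 nM, and 1.78 ± 0.75 and 1.202 ± 0.32 at 250 nM, and a difference between substrates was not detectable at this depth.

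**Figure D3:**
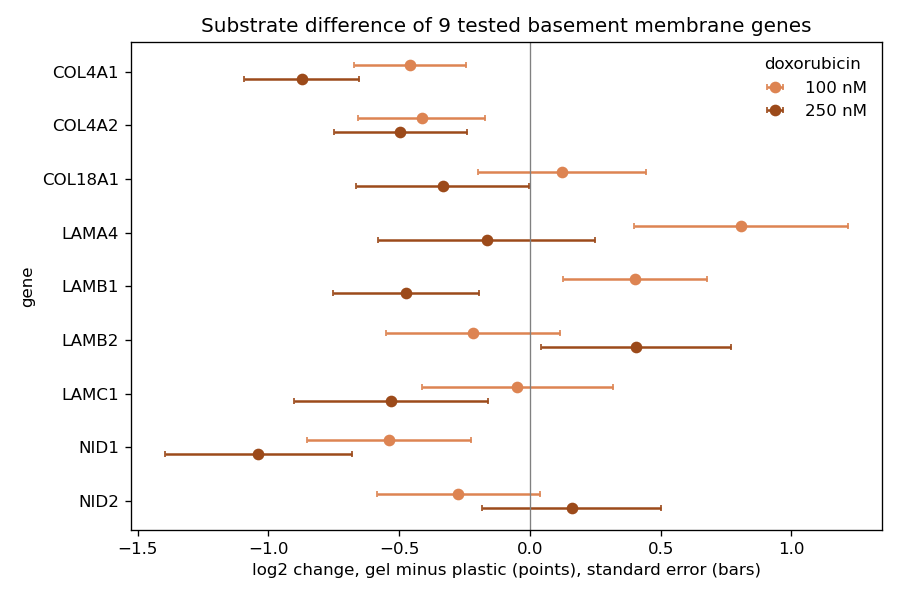
Log2 change from plastic to gel of the 9 tested genes (points) with its standard error (bars), at 100 nM and at 250 nM, from the edgeR fit. COL4A1, COL4A2 and NID1 lie left of 0 at both doses, and LAMA4 and LAMB1 lie right of 0 at 100 nM and left of it at 250 nM, where neither passed the test.

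Of the 9 members tested, edgeR called 0 between gel and plastic at 100 nM, where it called 0.219% of all tested genes. It called 0 of 9 at 250 nM (0.00811% of all genes), 0 of 9 on average over both doses (0.795%) and 0 of 9 for the difference between the doses (0.0%). At an unadjusted p under 0.05 there were 1 member at 100 nM against 9.87% of all genes, 2 at 250 nM against 9.93%, 3 on average against 12.4% and 1 for the difference against 6.25%. DESeq2 called 0, 1, 1 and 0 members in this order, limma-voom with sample weights 0, 1, 3 and 0, and limma on log2(TPM + 1) 0 in each. At 100 nM the substrates did not overlap for 0 of 9 members, against 19.0% of all genes. At 250 nM they did not overlap for 4 of 9, against 15.1% of all genes. These 4, COL4A1, COL4A2, LAMB1 and NID1, were all lower on gel, where 7.62% of all genes were lower without overlap. The median log2 change of the members was -0.22 at 100 nM, beside -0.01 over all tested genes, and -0.47 at 250 nM, beside -0.02. Negative changes were found for 6 of 9 members at 100 nM and 7 of 9 at 250 nM, and for 51.1% and 51.9% of all genes.

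Between the doses, COL4A2 and NID1 fell on gel. NID1 fell by 1.29 ± 0.35 on the log2 scale on gel, 2.45-fold, from 26.2 ± 10.3 to 10.7 ± 0.19 CPM, with an adjusted p of 0.0262 from edgeR. COL4A2 fell by 0.81 ± 0.25 on gel, 1.76-fold, from 91.2 ± 33.8 to 51.8 ± 6.56 CPM, with an adjusted p of 0.0462. These 2 were the members called on gel, of 9, where 6.89% of all genes were called lower and 13.8% in either direction. Both calls were close to the threshold: NID1 was called in 14 of 24 settings and COL4A2 in 10 of 24. NID1 lost its call without replicate 1 or 2 of gel at 100 nM, or any of the 3 libraries of gel at 250 nM, with adjusted p from 0.0515 to 0.11. With a library left out, COL4A2 kept its call in 3 of 12 fits, those that left out replicate 1 of either plastic group or replicate 2 of gel at 100 nM. Its change was -0.46 with an adjusted p of 0.202 when replicate 1 of gel at 100 nM was left out. On gel, COL4A1 changed by -0.59 ± 0.22, LAMC1 by -0.89 ± 0.37 and COL18A1 by 0.59 ± 0.33, with adjusted p of 0.0824, 0.121 and 0.235. Without replicate 1 of gel at 100 nM the change of COL4A1 was -0.29, and without replicate 1 of gel at 250 nM that of LAMC1 was -0.50. LAMC1 was called in 2 of 24 settings, with no filter on low counts and in limma-voom, with adjusted p down to 0.00237.

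On plastic edgeR called 0 of 9 members between the doses, where it called 8.61% of all genes, and 3 of 9 had an unadjusted p under 0.05 against 25.8% of all genes. DESeq2 called 1 and limma-voom 3. COL4A2 changed by -0.73 ± 0.25, from 121.4 ± 17.6 to 73.2 ± 12.9 CPM, with an adjusted p of 0.0809, and NID1 by -0.79 ± 0.33, with an adjusted p of 0.143, or -0.43 without replicate 3 at 100 nM. COL4A1 had 169.4 ± 15.4 and 150.0 ± 17.4 CPM, with overlapping libraries, a change of -0.18 ± 0.21 (-0.28 to -0.09 with a library left out) and an adjusted p of 0.652. COL18A1 was the member with the largest higher value at 250 nM, 23.5 ± 11.5 against 11.4 ± 3.17 CPM, a change of 1.05 ± 0.33 with an adjusted p of 0.0611. It was 0.56 with an adjusted p of 0.292 when the high library, replicate 1 at 250 nM, was left out. At an unadjusted p under 0.05 there were 4 of 9 members on gel, against 31.4% of all genes. The doses did not overlap for 4 of 9 members on plastic and 5 of 9 on gel, against 35.8% of all genes in each. The 2 dose comparisons use different libraries, and in both the library set changes with the dose.

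Other chains that could join these networks were few. Of 13 genes for further collagen IV, collagen XV and laminin chains, 7 passed the filter, and edgeR called 0 of 7 in each of the 6 comparisons. At an unadjusted p under 0.05 there were 1 at 100 nM, 1 at 250 nM and 2 on average between gel and plastic, and DESeq2 called 0, 0 and 1 of them, limma-voom 0, 0 and 2. LAMA1 averaged 22.3 CPM over all libraries and COL4A5 17.2. LAMC3 was at 0 in every library.

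Among proteins that bind or modify collagen IV, SPARC, LOXL2 and SERPINH1 were lower on gel. SPARC, a matrix protein that binds collagen IV and other collagens, had 978, 1024 and 803 CPM on plastic and 308.9, 482.2 and 439.8 on gel at 100 nM. The 250 nM libraries had 867, 1028 and 943 CPM on plastic and 446.8, 502.8 and 534.1 on gel. All gel libraries lay below all plastic libraries at both doses. SPARC fell by 1.19 ± 0.20 on the log2 scale at 100 nM with an adjusted p of 0.0208, and by 1.06 ± 0.14 on average over both doses, 2.09-fold, with an adjusted p of 0.00265. At 250 nM alone its change was -0.94 with an adjusted p of 0.19.

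LOXL2, a lysyl oxidase that crosslinks the 7S domain of collagen IV as well as fibrillar collagens, had 547.7, 444.0 and 446.4 CPM on plastic and 222.5, 253.1 and 235.1 on gel at 100 nM. The 250 nM libraries had 478.4, 526.3 and 507.5 CPM on plastic and 312.3, 271.2 and 267.7 on gel, again without overlap. LOXL2 fell by 1.02 ± 0.16 at 100 nM with an adjusted p of 0.0208, and by 0.92 ± 0.12 on average, 1.90-fold, with an adjusted p of 0.00224. At 250 nM its change was -0.83 with an adjusted p of 0.184. SERPINH1, the collagen chaperone HSP47, had 130.1, 139.1 and 111.8 CPM on plastic and 49.5, 72.8 and 68.1 on gel at 100 nM, and 96.0, 108.9 and 102.4 and 77.3, 73.5 and 68.8 at 250 nM. SERPINH1 fell by 1.00 ± 0.18 at 100 nM with an adjusted p of 0.043, and by 0.74 ± 0.13 on average, 1.67-fold, with an adjusted p of 0.0176. At 250 nM its change was -0.48 with an adjusted p of 0.39.

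**Figure D4:**
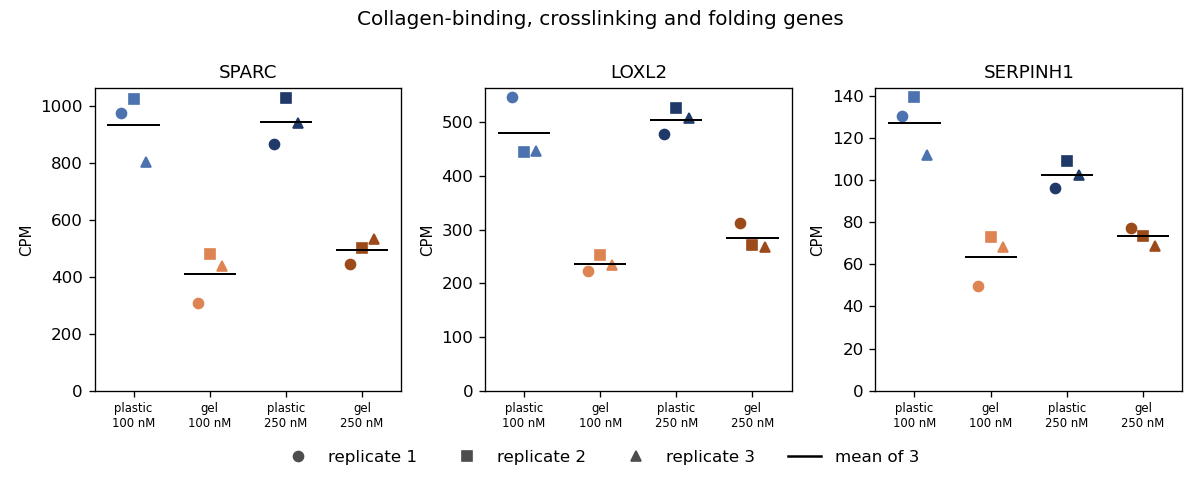
CPM of SPARC, LOXL2 and SERPINH1 in the 12 libraries, with a linear axis from 0, points shaped by replicate and a bar at the mean of 3. In all 3 panels each gel library lies below each plastic library of the same dose.

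The averages of SPARC and LOXL2 were called in 23 of 23 settings, and that of SERPINH1 in 18 of 23. SERPINH1 lost it without replicate 2 of plastic at 100 nM, replicate 3 of gel at 100 nM, replicate 2 or 3 of plastic at 250 nM, or replicate 3 of gel at 250 nM, with adjusted p up to 0.0693. At 100 nM alone the call held in 13 of 24 settings for SPARC, 12 of 24 for LOXL2 and 9 of 24 for SERPINH1, and with a library left out in 4, 3 and 1 of 12. All 3 proteins also act on fibrillar collagens, and 5 of 10 fibroblast markers fell on gel at 100 nM, where 0.219% of all genes were called in either direction. At 250 nM 1 of 10 fell (0.00811% of all genes), and on average 6 of 10 (0.795%), the latter including COL1A1, COL1A2 and COL3A1.

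Beyond these genes, edgeR called no other member of their lists between gel and plastic. Of 20 further basement membrane and associated proteins 9 were tested, and SPARC was the 1 called at 100 nM and on average, with 0 of 9 called at 250 nM, where 4 had an unadjusted p under 0.05 and DESeq2 and limma-voom called 1 each. Of 20 genes for folding, transport, modification and crosslinking 19 were tested, and LOXL2 and SERPINH1 were the 2 called at 100 nM and on average. At 250 nM edgeR called 0 of 19, 3 had an unadjusted p under 0.05, and DESeq2 and limma-voom called 2 each. The median change of the 19 was -0.12 at 100 nM and -0.07 at 250 nM, beside -0.01 and -0.02 over all genes. PXDN, the peroxidase that forms the sulfilimine crosslink of collagen IV, averaged 719.3 CPM and changed by 0.06 and -0.12, with adjusted p of 0.967 and 0.914.

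Several receptors of laminin and collagen IV were abundant. Of 15 receptor genes 12 were tested and edgeR called 0 of 12 between gel and plastic at each dose and on average. At an unadjusted p under 0.05 there were 3, 3 and 4, DESeq2 called 2, 0 and 1, and limma-voom 2, 0 and 5. ITGB1, the beta chain shared by the collagen and laminin integrins, averaged 2404 CPM, ITGA2 395.3, ITGA6 304.6 and the collagen receptor kinase DDR2 260.0. ITGA2, the alpha chain of a collagen integrin, had 255.6 ± 51.5 CPM on plastic and 549.2 ± 137 on gel at 100 nM, with an adjusted p of 0.106. At 250 nM ITGA2 had 351.2 ± 51.3 and 425.1 ± 103 CPM, with an adjusted p of 0.747.

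Of 16 proteases, inhibitors and sulfatases acting on the basement membrane 13 were tested, and 0 were called at either dose alone, where 5 and 3 had an unadjusted p under 0.05, DESeq2 called 1 at each dose and limma-voom 2. TIMP3 averaged 1748 CPM, TIMP2 664.8, CTSB 652.4 and TIMP1 410.0. MMP3, a stromelysin that cleaves laminin, nidogen and collagen IV, was the 1 gene called on average over both doses. It had 2.26, 0.463 and 0.473 CPM on plastic and 153.7, 11.2 and 21.9 on gel at 100 nM, and 2.47, 4.67 and 8.99 on plastic and 60.2, 25.1 and 21.4 on gel at 250 nM. All gel libraries were above all plastic libraries, with replicate 1 highest on gel at both doses. The fitted average was 19.0-fold higher on gel, a log2 change of 4.25 ± 0.73 with an adjusted p of 0.0207, and it was called in 13 of 23 settings and with a library left out in 4 of 12. Without replicate 1 of gel at 100 nM the average was 3.30 on the log2 scale, and at most 4.85 with another library left out.

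Across the 12 libraries, Pearson correlations of log2 CPM were ranked over 9550 other genes with a mean of at least 5 CPM, as a description of libraries that share substrate, dose and depth. COL4A2 was at 0.809 with COL4A1 (Spearman 0.818), rank 41, and NID1 at 0.801 (Spearman 0.811), rank 50. Within the 6 libraries of each dose, r with COL4A1 was 0.968 at 100 nM and 0.709 at 250 nM for COL4A2, and 0.661 and 0.888 for NID1. The 5 genes most like COL4A1 were C16orf87 at 0.911, HS6ST1 and CCN4 at 0.905 each, PDE5A at 0.901 and POLD3 at 0.898. LAMB1 was at 0.17 and LAMC1 at 0.46, but within the doses the sign differed. At 100 nM r was -0.517 for LAMB1 and -0.426 for LAMC1, and at 250 nM 0.526 and 0.491.

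The 5 genes most like LAMC1 were BRMS1L at 0.98, LMBR1 at 0.978, RASA2 at 0.977, TJP1 at 0.975 and SNX25 at 0.974. In the same order, r within 100 nM was lower, at 0.589, 0.846, 0.394, 0.802 and 0.612. Within 250 nM it was 0.998, 0.975, 0.99, 0.986 and 0.983. LAMB1 had a Pearson r of 0.65 with LAMC1 and a Spearman rho of -0.126, and within the doses r was -0.248 at 100 nM and 0.985 at 250 nM. All values with LAMC1 over all libraries and within 250 nM include its low library of gel, replicate 1.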

How the data were processed

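Gene tables of 12 libraries were used. Per the submitters' processing notes, Trimmomatic, STAR, RSEM and DESeq2 1.36.0 were used with GRCh38. Not given in the sources used here are other versions, the strand setting and whether molecular identifiers were collapsed. The authors deposited RSEM expected counts per gene, per the file headers. TPM values, scaled by RSEM for length and library, and the gene length behind them were deposited beside them, per the file headers. FPKM and effective length were also deposited by the authors and were not tested.

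Expected counts were rounded and fitted in edgeR 4.0.16 (R 4.3.3) with filterByExpr, TMM scaling, 1 mean per group, robust quasi-likelihood and 8 residual degrees of freedom. The common biological coefficient of variation was 0.299. Benjamini-Hochberg adjustment ran over the 12329 tested genes of each comparison, and genes were called under 0.05. CPM are rounded counts per 1000000 of the TMM-scaled library, and folds are fitted. Symbols came from a supplied name table for 61369 identifiers and from GENCODE 29 for 159 more. Alternatives used DESeq2 1.42.0, limma 3.58.1 (voom with sample weights, and log2(TPM + 1) or log2(TPM + 0.1)), other scaling and filters, a replicate block and left-out libraries. The fit was tested on simulated data.

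The members and lists were chosen with earlier results of these data known. Named are all members, and the 5 genes most correlated with COL4A1 and with LAMC1. Of the lists other than cell type markers, genes called between gel and plastic are named, otherwise up to 4 of the most abundant. Of the cell type markers only some are named, and not all that were called. The result of 1 list gene is left out of the text. The titles give doses in nM and a hydrogel, where the protocols give µM and PDMS-coated plates, and the wording of the titles is used.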

Additional observations from a re-analysis of the deposited data

How the results depend on the processing

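Over 54 results and 1203 alternatives, 1020 values kept their direction and their side of the threshold, 88 lost a call, 34 gained one, 30 turned sign and 31 counts or values moved. The count of members called was 0 at 100 nM in 24 of 24 settings and 0 for the difference between the doses in 23 of 23. At 250 nM it rose from 0 to 1 with no filter on low counts, in limma-voom and in DESeq2. On average over both doses it rose from 0 to 2 with no filter, to 3 in limma-voom, and to 1 in DESeq2 and without the 2 libraries that stood apart (range 0 to 1 with a library left out). For dose on plastic it rose from 0 to 1 with no filter, in the 6 libraries alone and in DESeq2, and to 3 in limma-voom (0 to 3 with a library left out). For dose on gel it rose from 2 to 3 with no filter, and dropped to 1 without ribosomal loci and the mitochondrial genome and in limma on TPM with either pseudocount, and to 0 without the 2 libraries apart and in the 6 libraries alone (0 to 2 with a library left out). In limma on TPM + 1 and TPM + 0.1, adjusted p was 0.0679 and 0.059 for NID1 and 0.236 and 0.239 for COL4A2. The 1 member called there was therefore neither of them. In limma-voom NID1 lost its call, with an adjusted p of 0.0586, and LAMC1 gained one. Fitting without robust estimation, an alternative added after the data were seen, changed no count of members.

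The ratio of NID1 to NID2 lost its call as a ratio of CPM (-0.71) and without the 2 libraries apart (-0.89, also added after the data were seen), with -0.92 to -0.65 with a library left out. The ratio of LAMB1 to LAMB2 turned to 0.094 without the 2 libraries apart and ran from -0.35 to 0.15 with a library left out, and that of LAMB1 to LAMC1 ran from -0.024 to 0.92.

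Signs of small changes turned for 5 members. At 100 nM these were COL18A1 (-0.068 to 0.33 with a library left out), LAMB2 (0.11 in limma-voom), LAMC1 (0.025 without the 2 libraries apart, 0.093 in limma-voom, 0.36 and 0.37 with TPM + 1 and TPM + 0.1, -0.14 to 0.10 with a library left out) and NID2 (0.031 without the 2 libraries apart, 0.072 and 0.082 with TPM + 1 and TPM + 0.1, -0.42 to 0.033 with a library left out). At 250 nM these were COL18A1 (-0.55 to 0.13 with a library left out), LAMA4 (0.12 without the 2 libraries apart, 0.073 and 0.077 with TPM + 1 and TPM + 0.1, -0.54 to 0.13 with a library left out) and NID2 (-0.16 without the 2 libraries apart, -0.040 in limma-voom, -0.13 and -0.12 with TPM + 1 and TPM + 0.1, -0.15 to 0.37 with a library left out). The cause was not tested.

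No pairing by replicate number was seen: deviations of same-numbered libraries correlated at -0.236 to 0.141, and 2 of 6 plastic libraries correlated best with their own number. Deviations from means of 3 libraries cannot exclude a pairing. With the replicate block the count of members called for dose on plastic was 1 in place of 0. The ratio of NID1 to NID2 stayed at -0.82, with an adjusted p of 0.125 from sign flips of 6 same-numbered pairs. It was lower on gel in every pair, the most extreme outcome that 6 pairs allow, so this test could not have called it. Counts of genes called over the whole table ranged widely: 5 to 447 at 100 nM (27), 0 to 181 at 250 nM (1), 38 to 801 on average (98), 0 to 63 for the difference (0), 118 to 3173 for dose on plastic (1061) and 518 to 2929 for dose on gel (1703), with the value reported here in parentheses. DESeq2 called 158, 93 and 385 genes in the first 3. At the depth of 250 nM, HSPG2 had 2 to 5.6 counts per library.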
